A study of Mus musculus with 4 samples.

Results

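The Notch pathway lets neighbouring cells signal to each other through membrane-bound ligands and receptors. It was examined here as 39 genes given by symbol, grouped by role: 4 receptors, 7 ligands and ligand-like proteins, 10 target genes of the Hes, Hey and Nrarp type, 3 Fringe enzymes, 2 Numb proteins, 4 members of the nuclear complex, 4 Deltex proteins and 5 subunits of gamma-secretase. All 39 symbols were found among the 23281 genes of the deposited table. Membership went by gene names and not by measured values, though the list was chosen with earlier results of these data known. RNA sequencing had been performed on 3 libraries of cultured mouse horizontal basal cells (HBCs), the reserve stem cells at the base of the olfactory epithelium, taken at passage 3 from wildtype mice with no sort given. They were set against 1 library of respiratory basal cells (RBCs), the stem cells of the adjoining respiratory epithelium, microdissected from mice of the strain KRT5-CreER;Ai9-fl(stop)TdTomato and sorted as TdTomato+. In that strain the keratin 5 promoter drives an inducible Cre recombinase, and the reporter stays on in the descendants of cells that recombined. The labels give neither the age or number of animals nor the induction schedule, and whether separate cultures or animals gave the 3 HBC libraries is not stated.

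As background, a Notch receptor bound by a ligand on a neighbouring cell is cut first by an ADAM protease and then by gamma-secretase. The released intracellular domain joins Rbpj and a Mastermind coactivator on DNA and switches on repressors of the Hes and Hey families. Notch signalling has been linked to the dormancy of HBCs in the mouse olfactory epithelium, and in airways it is known to steer the progeny of basal cells towards secretory rather than ciliated fates.

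Values are depth-scaled FPKM (fragments per kilobase of transcript), made by dividing each deposited column by a factor of its own, which was 0.845, 1.05 and 1.07 for HBC columns 1, 2 and 3 and 1.06 for the RBC column. They are per length, so levels of different genes can be set side by side. Deposited values summed to between 8377232 and 10855996 in the HBC libraries and to 9877606 in the RBC library, and depth in reads is unknown. Basal markers were present in both groups, and 6 of the 8 on the list were called lower in HBC libraries, as were most of the Notch genes tested. Among all genes tested, the share called lower was 34.2%. Their sum was 25236 to 26230 in HBC libraries, against 64735 in the RBC library. Krt5, the keratin whose promoter drives the Cre, averaged 18579 ± 368 in HBC libraries (SD, n = 3), against 26422 in the RBC library. Trp63, the basal stem cell transcription factor, averaged 545 ± 12.8 in HBC libraries and stood at 4296 in the RBC library. Trp63 was 7.88-fold lower in HBC libraries (limma adjusted p = 0.000127), and Krt5 was not called. Krt15 was 13.6-fold lower in HBC libraries and Icam1 29.8-fold lower. Itga6 went the other way, at 1262, 1304 and 1276 in HBC libraries and at 842 in the RBC library, and was not called. Of 57 tested markers on 8 lists for other cell types, 49 were lower and 2 were higher in HBC libraries, beside 34.2% and 12.8% of all genes tested. The 8 fibroblast markers summed to 47.5 to 69.0 in HBC libraries and to 7716 in the RBC library, the 8 neuronal lineage markers to 90.5 to 95.6 and 1875, the 5 sustentacular markers to 41181 to 43547 and 224393, the 6 secretory markers to 118019 to 120253 and 460895, the 7 ciliated markers to 6773 to 7209 and 8834, and the 9 leukocyte markers to 483 to 564 and 241. Single genes made up most of each of these sums in HBC libraries, Dcn for fibroblast and Omp for neuronal lineage markers. Ltf, of the secretory list, averaged 118866 ± 1159 in HBC libraries (SD, n = 3), against 18041 in the RBC library. Of 5 tested secretory markers, 4 were called lower in HBC libraries, and Bpifa1, at 438313, held most of the RBC sum. Cbr2, of the sustentacular list, averaged 42503 ± 1207 in HBC libraries, against 212906 in the RBC library. Cyp2g1 and Cyp1a2 were at 0 in all HBC libraries, as were Emcn, Erg, Cldn5, Cnn1, Csf1r, Tyrobp, Tekt1, Muc5b and Stmn2 on other lists. A tested gene at 0 in all HBC libraries is called lower by construction, so these markers were bound to be among the 49. Others, such as Pecam1, Vwf, Myh11 and Sec14l3, averaged below 1 in HBC libraries and passed the low-value minimum for testing only through the RBC library. Tubb4b averaged 6808 ± 228 in HBC libraries (SD, n = 3), against 5288 in the RBC library, while 6 of the 7 ciliated markers were called lower in HBC libraries. Cd68 averaged 514 ± 42.5 in HBC libraries, against 65.5 in the RBC library, while 5 of 7 tested leukocyte markers were called lower in HBC libraries. In the GENCODE M21 annotation, exons of 13 of the 39 genes overlap those of another gene, by over 10% of their bases in 6 (Nrarp, Hes5, Dll1, Aph1a, Notch1 and Hes7), and whether counting used strand is unknown. In bulk RNA, fewer cells of a type and less RNA per cell cannot be told apart, and the part that such cells or the lower basal markers played in the results below was not tested.

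The comparison asked how Notch pathway transcripts in cultured HBCs stood against those of basal cells taken from the respiratory epithelium. A gene was called when limma's adjusted p was under 0.05 and the change was at least 2-fold on the log2(value + 1) scale, with all 16438 genes above a low-value minimum fitted together. Log2 changes are HBC minus RBC and are followed by their standard error (SE). Of the 39 Notch genes, 35 were tested, and 21 of these were called lower in HBC libraries, 2 were called higher and 12 were not called. Among all genes tested, 34.2% were called lower in HBC libraries and 12.8% were called higher. In 6 of the 35 the mean of the HBC libraries was below the minimum of 1, so that they passed the minimum only through the RBC library, and 5 of these 6 were among the 21. The RBC value lay above all 3 HBC libraries in 30 of the 39 Notch genes and below all 3 in 7, whereas 58.6% and 35.5% of all genes tested did so. Most genes thus did not overlap between the groups, and lack of overlap is given below as description only. Of all genes tested, 1254 were at 0 in all HBC libraries. Every one of these was called lower by construction, and the 34.2% includes them. The median log2 change was -1.60 for the 35 Notch genes and -0.45 for all genes tested. Without genes at 0 in all HBC libraries these medians were -1.57 (34 Notch genes tested) and -0.29. With equal library medians these medians were -1.10 and 0.08. Quantile normalization gave -0.78 (36 Notch genes tested) and 0.13. Beside the calls above, 72.7% of all genes called were lower in HBC libraries, and this share was 53.2% with equal medians and 46.0% after quantile normalization. Only the 3 HBC libraries gave an estimate of spread, which may be technical, and each p-value takes the lone RBC library to vary as they do.

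**Figure D1:**
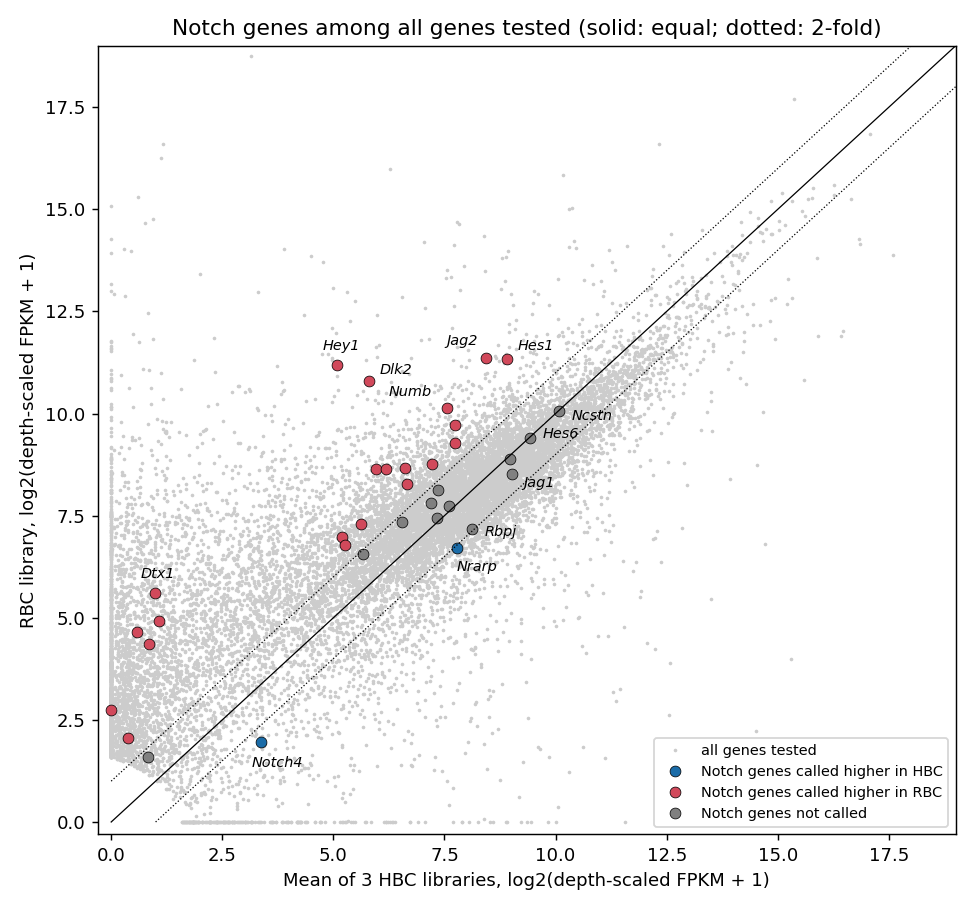
Each grey point is 1 of the 16438 genes tested, with the mean of the 3 HBC libraries on the x axis and the RBC library on the y axis, both as log2(depth-scaled FPKM + 1), and coloured points are the 35 Notch genes tested. The 21 genes called lower in HBC libraries lie above the dotted 2-fold line, with Hey1 and Dlk2 farthest above it among abundant genes, while Nrarp and Notch4 lie below the opposite line and Ncstn and Hes6 lie on the line of equal values.

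Receptor transcripts were lower in HBC libraries for Notch1 and Notch2, and the rank of the receptors was the same in both groups. Notch1, a receptor of epithelial stem cells, was at 210.2, 218 and 206 in HBC libraries 1, 2 and 3 and at 618 in the RBC library, 2.92-fold lower in HBC libraries (log2 change -1.54, SE 0.04, limma adjusted p = 0.000769). Notch2 was at 147, 153 and 146 in HBC libraries and at 433 in the RBC library, also 2.92-fold lower (log2 change -1.54, SE 0.04, limma adjusted p = 0.000813). Both genes were separated from the RBC value by far more than their range among HBC libraries, and their ratio was nearly constant: Notch1 was 1.43, 1.42 and 1.42 times Notch2 in the HBC libraries and 1.43 times Notch2 in the RBC library. Notch3, a receptor that vascular mural cells also express, was at 86.5, 98.4 and 94.2 in HBC libraries and at 162 in the RBC library. Its groups did not overlap, but the difference was under the 2-fold minimum (log2 change -0.80, SE 0.10). Beside it, 8 other mural and smooth muscle markers summed to between 579 and 606 in HBC libraries, and to 1952 in the RBC library. Of these, Cnn1 was listed at 0 in all HBC libraries, Acta2 was at 0.978, 1.57 and 1.55 there and at 879 in the RBC library, and Rgs5, at 391 to 431 in HBC libraries, against 369 in the RBC library, held most of the HBC sum.

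Notch4, the receptor best known from endothelium, was the exception among the receptors. It was at 7.78, 10.5 and 9.60 in HBC libraries and at 2.88 in the RBC library, 3.22-fold higher in HBC libraries (log2 change 1.40, SE 0.20, limma adjusted p = 0.0153). Leaving out HBC library 2 (limma adjusted p = 0.0505) or 3 (0.0718), or using values as deposited (0.0693), ended the call, and over the alternatives the adjusted p ran between 0.00208 and 0.0718. The 10 endothelial markers moved the other way, summing to between 1.89 and 3.30 in HBC libraries and to 102 in the RBC library, and Emcn, Erg and Cldn5 were listed at 0 in all HBC libraries. Summed over the 4 receptors, the level was between 451 and 480 in HBC libraries, against 1217 in the RBC library. Within each library, Notch1 made up 45.7% ± 0.717 of the receptor sum in HBC libraries (SD, n = 3), against 50.8% in the RBC library, Notch2 32.1% ± 0.343 and 35.6%, Notch3 20.1% ± 0.819 and 13.3%, and Notch4 2.0% ± 0.25 and 0.237%.

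**Figure D2:**
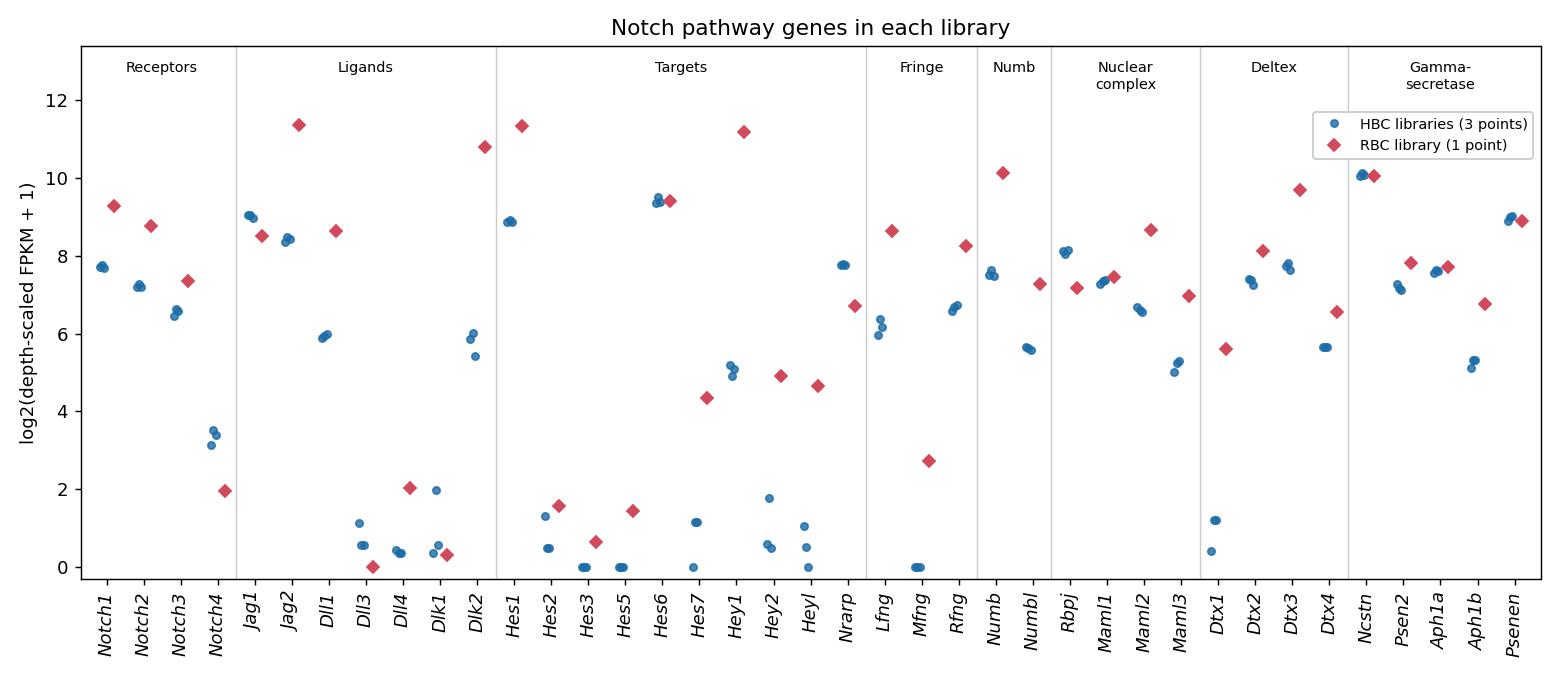
Level of each of the 39 Notch genes as log2(depth-scaled FPKM + 1) on the y axis, with the 3 HBC libraries as circles and the RBC library as a diamond, ordered by role along the x axis. The HBC libraries lie close together for abundant genes and spread for genes near 1, and the diamond is above the circles for Jag2, Dlk2, Hes1 and Hey1 and below them for Jag1, Nrarp and Rbpj.

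Among the ligands, the HBC libraries and the RBC library were led by different Jagged genes. Jag1 was at 532, 527 and 502 in HBC libraries and at 366 in the RBC library, 1.42-fold higher in HBC libraries and under the 2-fold minimum (log2 change 0.51, SE 0.05). With equal library medians, Jag1 passed the minimum (log2 change 1.01). Jag2 was at 328, 357 and 347 in HBC libraries and at 2636 in the RBC library, 7.66-fold lower in HBC libraries (log2 change -2.93, SE 0.06, limma adjusted p = 0.000492). Neither gene overlapped between the groups, and they lay on opposite sides. The ratio of Jag2 to Jag1, which 1 factor per library leaves as it is, was 0.616, 0.677 and 0.692 in the HBC libraries, against 7.21 in the RBC library.

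Of the Delta-type ligands, Dll1 was lower in HBC libraries, and Dll3 and Dll4 were near the level of single reads there. Dll1, a Delta ligand that activates receptors on neighbours, was at 58.5, 60.6 and 63.2 in HBC libraries and at 399 in the RBC library, 6.57-fold lower in HBC libraries (log2 change -2.70, SE 0.07, limma adjusted p = 0.000615). Of the exon bases of Dll1, 17.4% are shared with another annotated gene. Dll4, an endothelial Delta ligand, was at 0.357, 0.286 and 0.283 in HBC libraries and at 3.12 in the RBC library. It was called lower in HBC libraries (limma adjusted p = 0.000756), but its 3 deposited HBC values were the same to within 0.384%, which is how 1 read each would look, so their spread says little of the error. The direction of Dll4 turned under quantile normalization (log2 change 0.44). Dll3, a Delta protein that does not activate receptors on neighbours, was at 0.469 to 1.18 in HBC libraries, was listed at 0 in the RBC library and was too low to test. Of the summed canonical ligands, Jag1 made up 56.2% ± 1.49 in HBC libraries (SD, n = 3), against 10.7% in the RBC library, Jag2 37.1% ± 1.32 and 77.4%, and Dll1 6.56% ± 0.310 and 11.7%.

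The Delta-like homologues Dlk1 and Dlk2 lack the domain with which canonical ligands engage Notch receptors. Dlk2 was at 57.5, 63.6 and 42.3 in HBC libraries and at 1776 in the RBC library, where it was the fourth most abundant of the 39 genes. It was 32.6-fold lower in HBC libraries (log2 change -5.02, SE 0.30, limma adjusted p = 0.00290). Its spread among HBC libraries was the widest of the 27 Notch genes that averaged at least 10 there, with a coefficient of variation of 20.1% against a median of 4.38% for the 27 and of 4.95% for all 11703 such genes. Dlk1, which marks immature cells of several tissues, was at 0.296, 2.93 and 0.476 in HBC libraries, against 0.239 in the RBC library, and was too low to test.

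**Figure D3:**
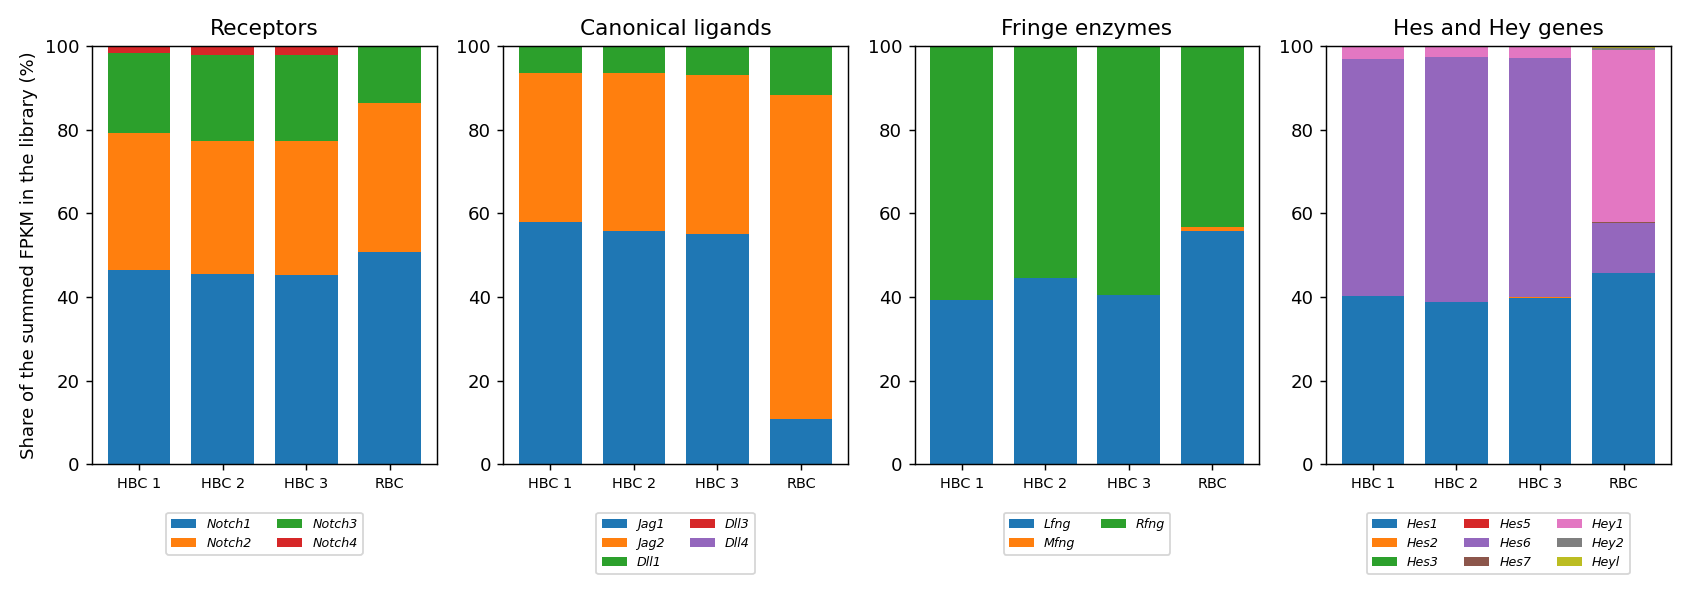
Stacked bars give the share of each gene in the summed FPKM of its family (y axis, percent) within each library, with HBC libraries 1 to 3 to the left of the RBC library. Jag1 is the largest ligand segment in each HBC library and Jag2 in the RBC library, and Hes6 fills the largest Hes and Hey segment in HBC libraries whereas Hes1 and Hey1 fill most of it in the RBC library.

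Of the 8 tested genes on the target list, 5 were lower in HBC libraries, 1 was higher and 2 were not called, beside 34.2% called lower and 12.8% called higher among all genes. The list took Hes and Hey genes by family, and whether each responds to Notch in these cells was not tested. Of the 5, Heyl and Hes7 averaged below the minimum in HBC libraries and passed it only through the RBC library. Hes1, the repressor that most directly follows Notch activity in many tissues, was at 472, 487 and 468 in HBC libraries and at 2603 in the RBC library, 5.47-fold lower in HBC libraries (log2 change -2.45, SE 0.03, limma adjusted p = 0.000162). Hey1, a related repressor, was at 35.9, 29.3 and 33.1 in HBC libraries and at 2337 in the RBC library, 71.4-fold lower in HBC libraries (log2 change -6.12, SE 0.15, limma adjusted p = 0.000597). The 2 genes thus differed in how far apart the groups lay. Hes1 was 13.2, 16.6 and 14.2 times Hey1 in the HBC libraries and 1.11 times Hey1 in the RBC library.

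Nrarp, an ankyrin-repeat protein that Notch induces and that dismantles the Notch transcription complex as negative feedback, went the other way from Hes1 and Hey1. It was at 216, 219.5 and 218 in HBC libraries and at 103.5 in the RBC library, 2.10-fold higher in HBC libraries (log2 change 1.07, SE 0.02, limma adjusted p = 0.000496). The groups did not overlap, and the coefficient of variation among HBC libraries was 0.756%. Relative to the median of all genes the log2 change of Nrarp was 1.51. The change was close to the 2-fold minimum and fell under it with values as deposited (log2 change 0.95) and with equal sums (0.97). In the same annotation, 79.4% of the exon bases of Nrarp are shared with an annotated gene on the opposite strand, so the 2 transcripts cannot be told apart where counting ignored strand. The ratio of Hes1 to Nrarp was 2.18, 2.22 and 2.15 in the HBC libraries, against 25.2 in the RBC library.

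Hes6, a Hes relative that opposes Hes1 and promotes neuronal differentiation, was level between the groups at 662, 732 and 671 in HBC libraries, against 675 in the RBC library. The RBC value lay inside the HBC range, and the sign of the small difference turned with the scaling. Within each library, Hes6 made up 57.3% ± 0.999 of the summed Hes and Hey transcripts there (SD, n = 3), against 11.9% in the RBC library. Hey1 made up 2.74% ± 0.367 in HBC libraries, against 41.1% in the RBC library.

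The remaining targets were scarce in HBC libraries. Hey2, the family member known from heart and vessels, was at 0.497, 2.40 and 0.395 in HBC libraries and at 29.3 in the RBC library. Heyl, which is known from vascular smooth muscle, was at 1.07, 0.430 and 0 in HBC libraries and at 24.1 in the RBC library. Hes7, the oscillating repressor of the segmentation clock, was at 0, 1.22 and 1.21 in HBC libraries and at 19.5 in the RBC library. None of these genes overlapped between the groups, and each was called lower in HBC libraries (limma adjusted p = 0.0235, 0.0117 and 0.0249 for Hey2, Heyl and Hes7). These calls rested on values of a few reads, and most of all genes tested also did not overlap between the groups. That of Hey2 did not survive the removal of HBC library 1 (limma adjusted p = 0.0933) or 3 (0.0808), and over the alternatives the adjusted p ran between 0.00265 and 0.153. For Heyl the removal of HBC library 2 ended the call (limma adjusted p = 0.0633, range 0.00128 to 0.169), and for Hes7 that of HBC library 2 (0.0786) or 3 (0.0767, range 0.00157 to 0.372). All 3 calls were also lost with a pseudocount of 0.1 and under quantile normalization. Hes2 was at 0.396 to 1.5 in HBC libraries and at 1.99 in the RBC library and was not called. Hes3 and Hes5 were listed at 0 in all HBC libraries and stood at 0.568 and 1.73 in the RBC library, too low to test. Beside Hey2 and Heyl, the 10 endothelial markers summed to between 1.89 and 3.30 in HBC libraries and to 102 in the RBC library.

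Promoter sequence was examined as a feature of these genes that expression did not choose. RefSeq windows of 250 bases before to 50 bases after the start site (build GRCm38.p6) were found for 31 of the 39 genes, in 40 windows, and not for Hes1, Hes2, Hes3, Hey1, Heyl, Mfng, Dtx3 or Dtx4. The motif TGGGAA, the core word that Rbpj is known to bind, was searched on both strands (TTCCCA on the other) and was present in 12 of the 40 windows and in 11 of the 31 genes. Of all 32851 windows 25.6% held it, and of all 27025 genes 28.3%. The motif CACNAG, known as the N box that Hes proteins bind, was searched likewise on both strands and was present in 17 of the 40 windows, as in 42.5% of all windows. Among genes on the target list with a window, TGGGAA was found for Hey2, Hes5 and Hes7 and not for Nrarp or Hes6. The windows of these targets that are named for their values above, of Lfng and of Rbpj are shown because they hold the matches, or in Nrarp the lack of one, in genes on either side of the difference between HBC and RBC libraries. Capitals mark TGGGAA or TTCCCA, and each window is written 5′ to 3′ along the gene's own strand. The windows are chr10:30842734-30843033 on the minus strand for Hey2, and on the plus strand chr11:69120203-69120502 for Hes7, chr4:154960673-154960972 for Hes5, chr2:25180508-25180807 for Nrarp, chr5:140607091-140607390 for Lfng and chr5:53590096-53590395 for the first of the windows of Rbpj.
Hey2: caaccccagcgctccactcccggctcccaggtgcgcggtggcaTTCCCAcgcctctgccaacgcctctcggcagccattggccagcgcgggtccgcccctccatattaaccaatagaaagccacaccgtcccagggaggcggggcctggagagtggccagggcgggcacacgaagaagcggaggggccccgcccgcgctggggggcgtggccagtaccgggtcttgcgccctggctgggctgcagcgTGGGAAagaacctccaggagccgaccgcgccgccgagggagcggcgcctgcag
Hes7: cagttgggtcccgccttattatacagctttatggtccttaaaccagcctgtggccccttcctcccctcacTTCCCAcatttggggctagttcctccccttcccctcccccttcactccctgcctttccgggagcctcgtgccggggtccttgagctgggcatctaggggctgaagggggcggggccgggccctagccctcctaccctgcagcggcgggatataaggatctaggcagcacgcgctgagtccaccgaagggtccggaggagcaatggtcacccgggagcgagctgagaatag
Hes5: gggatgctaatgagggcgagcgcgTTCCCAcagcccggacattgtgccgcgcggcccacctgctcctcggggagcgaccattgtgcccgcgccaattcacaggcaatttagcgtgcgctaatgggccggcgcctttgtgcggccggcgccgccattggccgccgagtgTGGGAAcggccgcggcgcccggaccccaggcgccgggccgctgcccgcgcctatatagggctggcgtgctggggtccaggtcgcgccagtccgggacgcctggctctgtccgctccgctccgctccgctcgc
Nrarp: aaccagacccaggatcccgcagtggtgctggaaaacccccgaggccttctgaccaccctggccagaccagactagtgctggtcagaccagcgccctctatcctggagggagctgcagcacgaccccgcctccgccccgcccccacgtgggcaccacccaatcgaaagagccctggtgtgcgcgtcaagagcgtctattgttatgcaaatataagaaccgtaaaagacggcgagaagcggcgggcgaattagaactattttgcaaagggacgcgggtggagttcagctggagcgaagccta
Lfng: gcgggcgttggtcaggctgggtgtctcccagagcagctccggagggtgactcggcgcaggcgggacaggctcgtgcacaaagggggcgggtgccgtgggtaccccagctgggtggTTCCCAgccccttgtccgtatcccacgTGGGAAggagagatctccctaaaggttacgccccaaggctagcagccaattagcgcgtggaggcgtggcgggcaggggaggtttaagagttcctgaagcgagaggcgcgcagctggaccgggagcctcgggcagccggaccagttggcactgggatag
Rbpj: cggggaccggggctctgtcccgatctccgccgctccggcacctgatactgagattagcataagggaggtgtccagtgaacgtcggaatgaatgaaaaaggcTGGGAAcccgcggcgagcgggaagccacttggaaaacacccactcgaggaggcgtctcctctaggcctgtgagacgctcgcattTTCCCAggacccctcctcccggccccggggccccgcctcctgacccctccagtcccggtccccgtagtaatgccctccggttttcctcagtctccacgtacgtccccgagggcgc

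Counted from the start site, the match nearest to it began at base -3 in Hey2, at -82 in Hes5, at -108 in Lfng, at -65 in Rbpj and at -180 in Hes7. Hey2, Hes5, Lfng and Rbpj each held 2 matches, 1 on each strand, and Hes7 held 1. Of the genes shown with matches, Hey2, Hes7 and Lfng were lower in HBC libraries. Rbpj was above the RBC value in every HBC library, and Hes5 was listed at 0 in HBC libraries. The other genes with matches were Maml2 and Maml3, called lower in HBC libraries, and Aph1a, Dtx2, Psen2 and Psenen, which were not called. A match describes these letters only and shows no binding.

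The Fringe enzymes add a sugar to the extracellular part of Notch receptors and so change which ligands they answer. All 3 were called lower in HBC libraries, Mfng by construction, beside 34.2% of all genes tested. Lfng was at 61.2, 81.7 and 71.6 in HBC libraries and at 396 in the RBC library, 5.53-fold lower in HBC libraries (log2 change -2.46, SE 0.21, limma adjusted p = 0.00535). Rfng was at 94.9, 101 and 106 in HBC libraries and at 307 in the RBC library, 3.05-fold lower (log2 change -1.60, SE 0.08, limma adjusted p = 0.00219). Neither overlapped between the groups, and their order was reversed: Lfng was 0.645, 0.806 and 0.677 times Rfng in the HBC libraries and 1.29 times Rfng in the RBC library. Mfng was listed at 0 in each HBC library and stood at 5.66 in the RBC library, so that it was called by construction and no p or fold is given. Mfng is known from blood cells. The 9 leukocyte markers summed to 483 to 564 in HBC libraries and to 241 in the RBC library. Cd68 was called higher in HBC libraries, 5 of the 7 tested were called lower, and Csf1r and Tyrobp were at 0 in all HBC libraries.

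Numb and its relative Numbl are endocytic adaptors that dampen Notch signalling. Numb was at 182, 199 and 177 in HBC libraries and at 1116 in the RBC library, 6.0-fold lower in HBC libraries (log2 change -2.58, SE 0.09, limma adjusted p = 0.00112). Numbl was at 49.9, 48.9 and 46.8 in HBC libraries and at 155 in the RBC library, 3.20-fold lower (log2 change -1.66, SE 0.07, limma adjusted p = 0.00165). Both lay well outside the HBC range in the RBC library. Numb was 0.865, 0.913 and 0.858 times Notch1 in HBC libraries and 1.81 times Notch1 in the RBC library.

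In the nuclear complex, the DNA-binding partner was above the RBC level in HBC libraries and the coactivators Maml2 and Maml3 were below it. Rbpj, the DNA-binding protein, was at 278, 265 and 282 in HBC libraries and at 144 in the RBC library, 1.91-fold higher in HBC libraries (log2 change 0.92, SE 0.05). The groups did not overlap, and Rbpj lay just under the 2-fold minimum, which it passed with equal library medians (log2 change 1.43) and after quantile normalization (1.34). Relative to the median of all genes its log2 change was 1.37. Of the Mastermind coactivators, Maml1 was at 155, 162 and 164 in HBC libraries and at 174 in the RBC library and was not called, and its direction turned with equal library medians and after quantile normalization. Maml2 was at 102, 97.0 and 93.6 in HBC libraries and at 404 in the RBC library, 4.14-fold lower in HBC libraries (log2 change -2.04, SE 0.07, limma adjusted p = 0.000984). Maml3 was at 31.4, 36.8 and 38.5 in HBC libraries and at 124 in the RBC library, 3.50-fold lower (log2 change -1.78, SE 0.17, limma adjusted p = 0.00632), and missed the minimum under quantile normalization (log2 change -0.94). Within a library, Notch1 was 0.756, 0.822 and 0.732 times Rbpj in the HBC libraries and 4.28 times Rbpj in the RBC library. The ratio of Maml2 to Maml1 was 0.655, 0.599 and 0.570 in the HBC libraries, against 2.33 in the RBC library.

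The Deltex proteins are ubiquitin ligases, several of which act on Notch receptors. Dtx3 was at 212, 225 and 199 in HBC libraries and at 835 in the RBC library, 3.94-fold lower in HBC libraries (log2 change -1.98, SE 0.09, limma adjusted p = 0.00171). Dtx1, itself a Notch target in lymphocytes, was at 0.330, 1.32 and 1.31 in HBC libraries and at 48.1 in the RBC library, and was called lower in HBC libraries (log2 change -4.67, SE 0.46, limma adjusted p = 0.00716). The groups did not overlap for either gene, and the HBC values of Dtx1 were those of a few reads. Dtx2 was at 169, 166 and 152 in HBC libraries and at 280.3 in the RBC library. Dtx4 was at 49.3, 49.7 and 49.9 in HBC libraries and at 93.3 in the RBC library. Both lay below the RBC value in every HBC library but stayed under the 2-fold minimum (log2 change -0.78, SE 0.09, and -0.90, SE 0.06), though Dtx4 passed it with values as deposited (log2 change -1.01), and the sign of its change turned under quantile normalization (0.021).

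Gamma-secretase, the membrane protease that releases the intracellular domain, had 4 of 5 measured subunits that were not called. Ncstn, which encodes the substrate-receiving subunit nicastrin, was at 1058, 1114 and 1084 in HBC libraries and at 1071 in the RBC library, and was the most abundant of the 39 genes in every HBC library. Psenen, a small subunit needed for activation of the enzyme, was at 479, 513 and 524 in HBC libraries and at 475 in the RBC library. Aph1a, a scaffold subunit, was at 187, 199 and 196 in HBC libraries and at 211 in the RBC library. None of these was called, and the direction of each turned with the scaling. Relative to the median of all genes, the log2 changes of Ncstn, Psenen and Aph1a were 0.47, 0.53 and 0.33. Psen2, a catalytic subunit, was at 154, 142 and 138 in HBC libraries and at 224 in the RBC library, under the 2-fold minimum (log2 change -0.63, SE 0.08). Aph1b was at 33.8, 39.1 and 39.2 in HBC libraries and at 108 in the RBC library, 2.90-fold lower in HBC libraries (log2 change -1.52, SE 0.14, limma adjusted p = 0.00612). It missed the minimum under quantile normalization (log2 change -0.62). Mouse Aph1b has a close duplicate, Aph1c, at 5.35, 8.97 and 10.1 in HBC libraries and at 100.2 in the RBC library, so the split of reads between them is uncertain. Summed over the 5 subunits, the level was between 1912 and 2007 in HBC libraries, against 2090.0 in the RBC library.

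**Figure D4:**
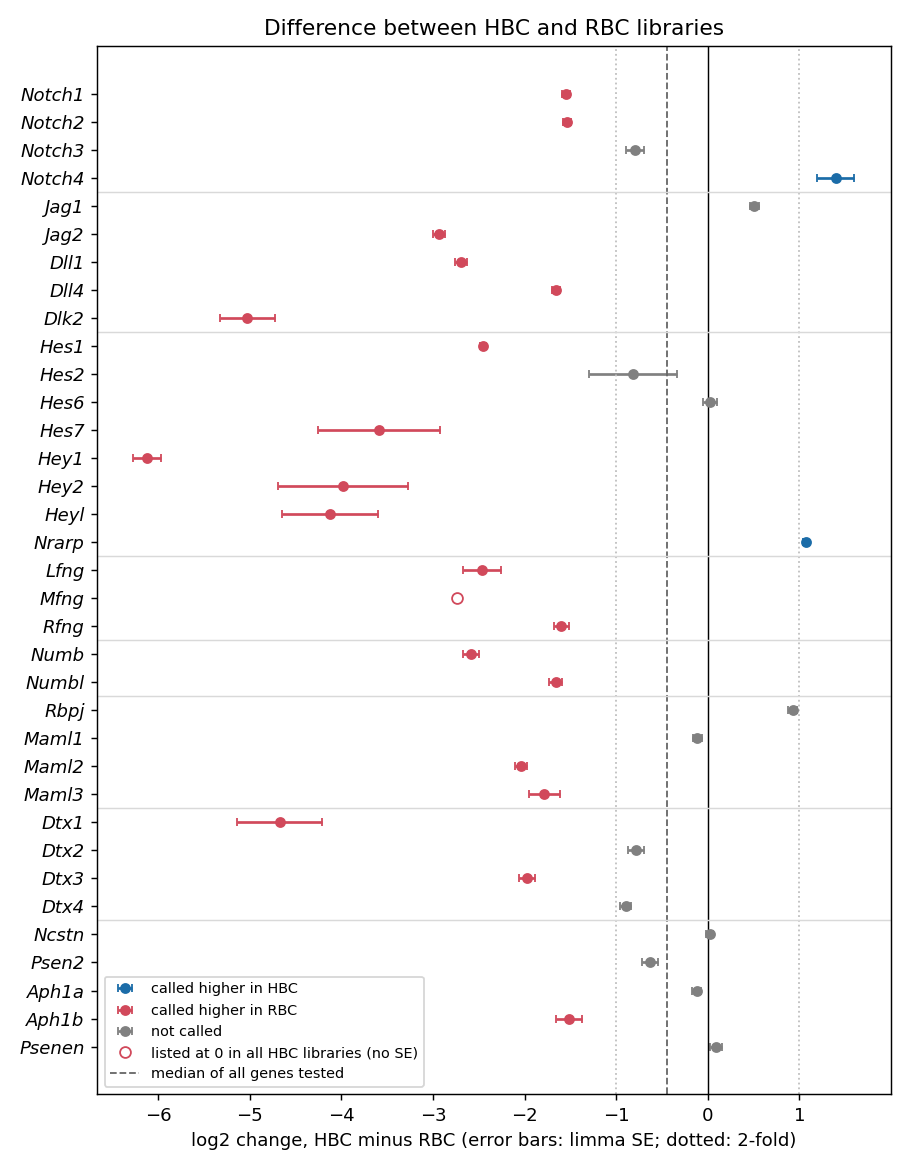
Log2 change (x axis, HBC minus RBC) of the 35 Notch genes tested, by role from receptors at the top to gamma-secretase at the bottom, with limma's SE as error bars. Points right of 0 were higher in HBC libraries, and most points lie left of the median of all genes (dashed, -0.45), with Hey1 at -6.12 and Notch4 at 1.40 as the extremes.

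The order of the 39 genes within a library also differed between the groups. In HBC libraries Ncstn, Hes6, Jag1, Psenen and Hes1 led in mean level, whereas in the RBC library Jag2, Hes1, Hey1, Dlk2 and Numb led. Jag1 and Psenen exchanged places between HBC libraries, and the order of Jag2 (2636) and Hes1 (2603) in the RBC library has no replicate check. Hey1 was 25th to 27th among the 39 genes in HBC libraries and the third in the RBC library. Rbpj was 7th in every HBC library and 23rd in the RBC library, and Nrarp was 8th or 9th and 26th.

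Other genes of the pathway were taken from 4 lists of 49 symbols outside the 39 genes. Of 47 tested, 5 were higher in HBC libraries and 15 were lower, beside 12.8% and 34.2% of all genes, and their median log2 change was -0.27. Among 12 genes that process ligands or receptors, 2 were higher in HBC libraries and 3 were lower. The neuralized-type ubiquitin ligase genes were divided. Neurl3 was at 159, 128 and 145 in HBC libraries and at 29.5 in the RBC library (4.89-fold higher in HBC libraries, log2 change 2.24, SE 0.16, limma adjusted p = 0.00391). Neurl1a, by contrast, averaged 3.26 ± 0.927 in HBC libraries and stood at 58.2 in the RBC library (log2 change -3.82, SE 0.30, limma adjusted p = 0.00470), and Neurl2 averaged 7.02 ± 2.77 in HBC libraries and stood at 107 in the RBC library (SD, n = 3). Removing HBC library 1 (limma adjusted p = 0.0536) or 2 (0.0550) ended the Neurl2 call.

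The proteases that cut Notch were named after their values had been seen. Adam17 was at 599, 583 and 555 in HBC libraries and at 285 in the RBC library (2.03-fold higher in HBC libraries, log2 change 1.02, limma adjusted p = 0.00252), and fell under the 2-fold minimum with values as deposited (log2 change 0.91) and with equal sums (0.92). Adam10 was at 877, 814 and 827 in HBC libraries and at 523 in the RBC library, under the minimum.

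Of 10 genes of endocytosis and turnover, 1 was called lower in HBC libraries: Nedd4l, a ubiquitin ligase, at 51.7 ± 3.26 in HBC libraries, against 113 in the RBC library (SD, n = 3). It fell under the minimum after quantile normalization (log2 change -0.31) and with equal library medians (-0.61). Of 17 tested nuclear cofactors, 1 was higher in HBC libraries and 7 were lower. The Groucho-type corepressors Tle2 and Tle4, with which Hes proteins act, averaged 9.82 ± 3.26 and 58.0 ± 11.9 in HBC libraries and stood at 278 and 275 in the RBC library, and removing HBC library 1 ended the Tle4 call (limma adjusted p = 0.0620). The acetyltransferase Crebbp averaged 62.1 ± 6.41 in HBC libraries and stood at 186 in the RBC library. Of 8 tested genes of non-canonical ligands, 2 were higher in HBC libraries and 4 were lower. Egfl7, a secreted protein of endothelium that can bind Notch, was at 85.4, 102 and 138 in HBC libraries and at 19.3 in the RBC library (log2 change 2.41, SE 0.35), a call that the removal of HBC library 2 ended (limma adjusted p = 0.0735). Dner was at 1.01, 0.543 and 0.268 in HBC libraries and at 57.0 in the RBC library, so it passed the low-value minimum only through the RBC library. Nov averaged 13.3 ± 2.88 in HBC libraries and stood at 209 in the RBC library. Mfap5, at 0 in all HBC libraries and at 3.83 in the RBC library, was called lower by construction. Beside the lists in this paragraph, 34.2% of all genes tested were called lower in HBC libraries and 12.8% were called higher. Egfl7 and Notch4 are both known from endothelium, and for both the call of higher in HBC libraries was lost without HBC library 2. The 10 endothelial markers summed to at most 3.30 in HBC libraries. Which cells gave these transcripts was not tested.

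**Figure D5:**
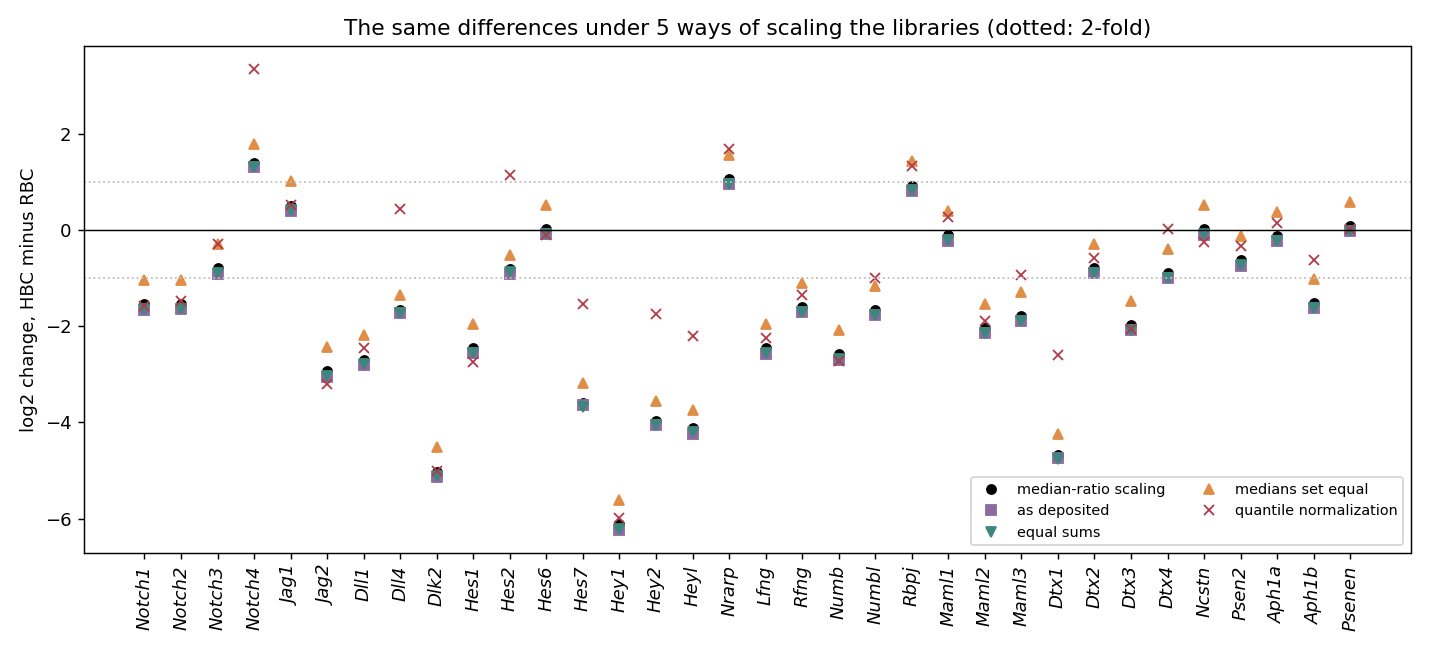
Log2 change (y axis, HBC minus RBC) of the 34 Notch genes that were tested and above 0 in an HBC library, with 1 symbol for each of 5 ways of scaling the libraries. Hey1, Dlk2, Jag2, Hes1 and Numb stay below the lower dotted 2-fold line under all 5, whereas Nrarp and Rbpj lie near or above the upper line. Jag1 lies between 0 and the upper line except with equal medians, where it reaches that line, and Hes6 and Ncstn move across 0.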

How the data were processed

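RNA from 3 libraries of cultured HBCs and 1 library of sorted RBCs had been sequenced after column purification and standard Illumina library preparation, per the labels' protocols. The authors deposited 1 table of values named FPKM for 23281 gene symbols. Build mm9 and the tools STAR, Cufflinks 2.2.1 and Cuffnorm are listed, without role or order, per the submitters' processing notes. No source used here gives the annotation, the strand setting or any filter. The deposited FPKM values appeared to carry each library's depth. Among genes below 4 in every library, 16.8% to 26.0% had a ratio within 2% of 1 in pairs with HBC library 1, and 0.751% to 1.18% had the ratio that division by depth would give. Values were therefore divided by median-ratio factors from the 11134 genes that reached 10 in every library.

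Genes with a mean of the group levels of at least 1 were tested on log2(value + 1) with limma 3.58.1 in R 4.3.3 (trend, two-sided, Benjamini-Hochberg over all genes tested), as fitted to 3 HBC libraries and 1 RBC library with 2 residual degrees of freedom. A pseudocount understates the change of low genes, so folds are given as ratios of the scaled values themselves. On simulated data for HBC over RBC, with 13769 genes, 44.6% of genes changed 2-fold, 92.4% changed 4-fold and 98.5% changed 8-fold were called, and 0 of 13573 unchanged genes were. The simulated RBC library was drawn with the HBC spread, and few genes were changed. These shares therefore cannot show how often calls in the real data are false. No p-value is given for genes at 0 in all HBC libraries. Without the depth in reads, no counting interval can be given. The Notch genes and the other lists were chosen with earlier results of these data known. Genes at 10 or more in either group are given in every library, and of the other pathway genes up to 3 called genes with the largest log2 change in each list are named. Each column name matched 1 sample title. Protein sequences were not used here, and promoter windows are from RefSeq (GRCm38.p6), matched by symbol.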

Additional observations from a re-analysis of the deposited data

How the results depend on the processing

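Of 406 recomputed log2 changes of the 34 Notch genes with a spread, under 12 alternatives, 367 kept their direction and their side of the threshold, 18 lost the call, 5 gained it and 16 changed sign. The alternative that left out genes at 0 in all HBC libraries was chosen after seeing the data. The count of Notch genes lower in HBC libraries was 14 to 22 against 21, and the 14 called under quantile normalization were all among the 21. The count higher in HBC libraries was 2, and was 0 by limma with values as deposited (1 at an unadjusted p under 0.05), 1 with equal sums, 4 with the medians set equal, 4 under quantile normalization, and 1 to 2 without each HBC library in turn. Over all genes the count higher in HBC libraries was 2105, and was 3789 with the medians set equal and 3586 under quantile normalization, where the count lower in HBC libraries was 3049 against 5619. The share of calls that were lower in HBC libraries was 72.7%, and was 53.2% with the medians set equal and 46.0% under quantile normalization. For all genes the median change on the log2 scale moved by 0.52 and 0.58 under these settings, by -0.11 with values as deposited and by -0.10 with equal sums. Of the other pathway genes, 9 rather than 5 were higher in HBC libraries with the medians set equal, and 8 rather than 15 were lower, which became 9 under quantile normalization. Under quantile normalization the log2 change was 0.44 for Dll4, 1.14 for Hes2, -0.11 for Hes6, 0.27 for Maml1, 0.021 for Dtx4, -0.24 for Ncstn and 0.15 for Aph1a. With the medians set equal it was 0.39 for Maml1 and 0.38 for Aph1a. With values as deposited it was -0.087 for Hes6, -0.094 for Ncstn and -0.026 for Psenen, and with equal sums -0.075, -0.082 and -0.014. Without HBC replicate 2 it was -0.016 for Hes6, and 0.066 without HBC replicate 1. The cause of these changes was not tested. No paired analysis was possible because no label links an HBC library to the RBC library. Genes below about 3 scaled FPKM in HBC libraries rest on a few reads, and depth in reads is unknown.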
